A study of Mus musculus with 12 samples.

Results

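The Tribbles family of pseudokinases has 3 members in the mouse, Trib1, Trib2 and Trib3, and their RNA was followed in the bone marrow of mice lacking Fanconi anemia genes. The members were taken by gene symbol: every probe set whose only gene symbol was one of theirs, which gave 7 of the 34945 single-symbol probe sets and 3 of 18193 genes. They were chosen by their measured differences from wild type on these same arrays: Trib2 was known to be lower in every knockout and Trib3 higher in the double knockout. Their differences from wild type are therefore described without a test, and only differences among the knockouts, which use some of the same arrays but not that contrast, are tested. All 3 genes passed the filter on dim probe sets, which 11906 genes passed.

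Tribbles proteins have a kinase fold but little or no catalytic activity, and act as scaffolds. Trib1 and Trib2 hold the ubiquitin ligase Cop1 against the transcription factor C/EBP alpha (Cebpa), which is then degraded, and both can drive acute myeloid leukemia in mice when overexpressed. Trib3 is best known as a gene induced by the transcription factors Atf4 and Ddit3 (CHOP) when cells lack amino acids or carry misfolded proteins, and as an inhibitor of the kinase Akt. The proteins of Fancc and Fancg belong to a ubiquitin ligase assembly, the Fanconi core complex, that cells need to remove crosslinks from DNA, and people who lack either develop marrow failure.

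Marrow flushed from tibia and femur, neither fractionated nor cultured, gave 1 unpooled RNA sample and 1 array per mouse. The groups were 3 mice lacking both Fancc and Fancg (double knockout), 3 lacking Fancc (Fancc-/-), 3 lacking Fancg (Fancg-/-) and 3 wild-type C57Bl/6 controls. The labels give no strain for the knockouts and no age or sex for any mouse. RNA input was 2 µg, except 0.91 µg for Fancg-/- replicate 3. Values are RMA signals on the log2 scale, so a difference of 1 is a doubling, and a level of one probe set cannot be set against that of another.

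Several arrays stood apart or went against what their labels would give. Double-knockout replicate 1 correlated at 0.973 with each of the other double-knockout arrays, which correlated at 0.992 with each other, and at 0.9888 with Fancg-/- replicate 1. Fancc-/- arrays correlated with each other at 0.9539 to 0.9845. Fancg signal was 5.61, 5.83 and 5.78 in the double knockouts, 6.72, 6.55 and 6.43 in Fancc-/-, 6.55, 6.00 and 6.64 in Fancg-/- and 6.80, 6.86 and 6.86 in wild type. It fell in the double knockout (-1.10 ± 0.16 against wild type, limma adjusted p = 0.0105) but did not pass in Fancg-/- (-0.44, adjusted p = 0.567). The Fancc signal in Fancc-/- differed from wild type by 0.02 (adjusted p = 0.962), and where these probe sets lie relative to the deleted parts is not given in the sources used here. Xist, the RNA of the inactive X chromosome, was 7.39, 7.06 and 5.99 in the double knockouts, 12.13, 11.76 and 11.19 in Fancc-/-, 11.31, 7.34 and 10.75 in Fancg-/- and 11.30, 12.15 and 12.23 in wild type. The Y-linked Eif2s3y was 9.35, 8.85 and 8.81 in the double knockouts, 7.64, 9.09 and 5.78 in Fancg-/-, and at most 3.30 in Fancc-/- and wild type. Kdm5d, also Y-linked, was 5.32, 5.67 and 5.33 in the double knockouts, 4.24, 5.22 and 3.35 in Fancg-/-, 3.07 to 3.38 in Fancc-/- and 3.08 to 3.27 in wild type, so on Fancg-/- replicate 3 it was within the Fancc-/- range. Double knockout and this sex-linked pattern cannot be told apart against wild type, and Fancg-/- replicate 1 carried Xist and both Y-linked RNAs, replicate 3 Xist and Eif2s3y. Values given below with Xist as a covariate do not separate them either, because the slope of Xist came only from spread within groups. The SD of Xist was 2.15 in Fancg-/- and 0.47 to 0.73 in the other groups.

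The stretches around the starts of Trib2 and Trib3 are shown because these are the members whose levels set the knockouts apart from wild type. Both genes also have textbook regulators, Meis1 with Hoxa9 for Trib2 and Atf4 with CHOP for Trib3. The sequences are RefSeq's, on GRCm38.p6, minus strand, 5′ to 3′, and 2 of the 3 members had an entry. The Trib2 gene spans chr12:15791725-15816962, and the 96 bases shown are chr12:15816940-15817035. They begin 250 bases before a start site, and the annotated gene reaches 177 bases further upstream than that site. The Trib3 gene spans chr2:152337425-152344060, and the 280 bases shown, chr2:152344031-152344310, run to 30 bases after its start. Trib1, at chr15:59648654-59657099, had no promoter entry. All 3 are annotated as protein coding.
Trib2: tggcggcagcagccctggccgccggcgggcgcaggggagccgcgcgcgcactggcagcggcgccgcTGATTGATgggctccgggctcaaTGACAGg
Trib3: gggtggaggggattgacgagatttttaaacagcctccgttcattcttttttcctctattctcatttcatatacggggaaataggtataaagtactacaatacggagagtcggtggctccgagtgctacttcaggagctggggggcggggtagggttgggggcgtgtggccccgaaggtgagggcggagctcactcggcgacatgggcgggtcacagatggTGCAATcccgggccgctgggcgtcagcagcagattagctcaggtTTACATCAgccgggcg
Capitals mark letter matches, searched on both strands of the whole window of 250 bases before to 50 after the start. In Trib2 they are TGATTGAT at -184, a match to the PBX-HOX letters TGATTNAT, and the MEIS letters TGACAG at -161, which do not overlap. In Trib3 they are the CHOP-C/EBP core TGCAAT at -30 and TTACATCA at 14, the other-strand form of the C/EBP-ATF composite TGATGNAA. The MEIS match in Trib2 and the composite match in Trib3 lie inside the annotated genes, and the PBX-HOX match reaches the edge of the Trib2 gene. Of 32851 mouse promoters of the same length, 3.22% held TGATTNAT, 19.2% TGACAG, 8.4% TGCAAT and 3.97% TGATGNAA. The RBPJ letters TGGGAA, held by 25.6%, were in neither window. The Trib2 window was 71.0% G and C and the Trib3 window 58.3%, against a median of 52.7% over all promoters.

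Trib2, a member that acts in lymphoid and myeloid leukemia, was lower on every knockout array than on any wild-type array. Its brightest probe set, 1426640_s_at, read 6.54, 6.67 and 6.42 in the double knockouts, 6.63, 6.46 and 6.18 in Fancc-/-, 5.56, 6.03 and 6.53 in Fancg-/- and 8.53, 8.26 and 7.70 in wild type. The knockouts lay close together, and a gap of at least 1.02 separated each of them from wild type. All 9 knockout arrays were below all 3 wild-type arrays, as were 441 of the 11906 genes (3.7%). Because that pattern is how the gene was chosen, nothing is read from the count.

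Trib2 averaged 6.55 ± 0.13 in the double knockouts, 6.42 ± 0.23 in Fancc-/-, 6.04 ± 0.48 in Fancg-/- and 8.16 ± 0.43 in wild type (SD, n = 3 each). Against wild type the difference was -1.62 ± 0.25 (SE) for the double knockout, a 3.07-fold lower signal, with a 95% interval of -2.16 to -1.07, and -1.72 ± 0.55 with Xist as a covariate. For Fancc-/- it was -1.74 (3.34-fold lower, -2.29 to -1.19), and for Fancg-/- -2.13 (4.36-fold lower, -2.67 to -1.58). The knockouts were not shown to differ in Trib2 among themselves. Since Trib2 was chosen for being lower in every knockout, tests among these arrays are not independent of the choice. The double knockout minus Fancc-/- was 0.12 (interval -0.42 to 0.67, limma adjusted p = 0.815), and minus Fancg-/- 0.51 (-0.04 to 1.05, adjusted p = 0.375). Fancg-/- minus Fancc-/- was -0.39 (-0.93 to 0.16, adjusted p = 0.698).

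The other Trib2 probe sets were dim. On 1426641_at, which never passed the array median, the signal was 3.73, 3.81 and 3.73 in the double knockouts, 3.97, 3.63 and 3.80 in Fancc-/-, 3.49, 3.64 and 3.89 in Fancg-/- and 4.75, 4.58 and 4.22 in wild type. All 9 knockout arrays were again below wild type, at a smaller distance. The probe set 1459852_x_at stayed between 2.68 and 2.93 on every array, near the lowest values of the table, and 7 of its 9 knockout readings were above wild type. The direction of Trib2 thus rests on the 2 brighter probe sets.

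**Figure D1:**
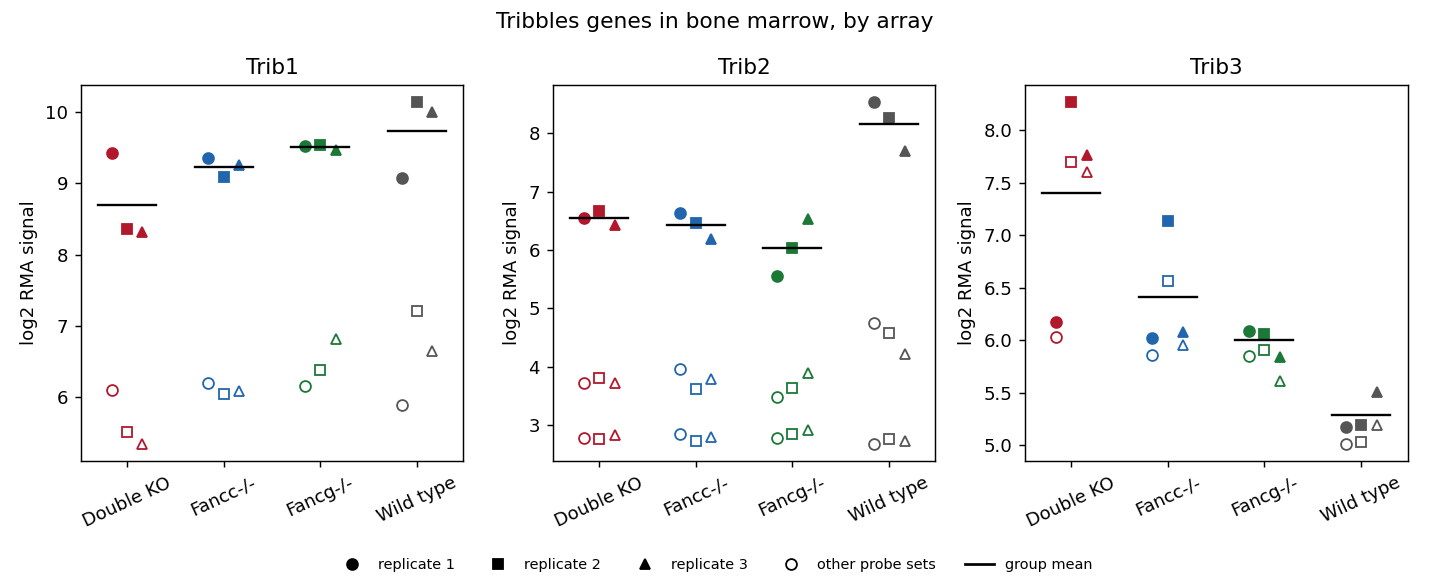
log2 RMA signal of Trib1, Trib2 and Trib3 on each of the 12 arrays, by genotype. Filled symbols are the brightest probe set, with its group mean as a bar, open symbols the other probe sets, and the symbol shape is the replicate number. The 9 knockout arrays lie below wild type for Trib2 (5.56 to 6.67 against 7.70 to 8.53) and above it for Trib3, and double-knockout replicate 1 lies apart from replicates 2 and 3 for Trib1 and Trib3.

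Markers of B-lineage cells moved with Trib2, and in whole marrow fewer cells of a type and less RNA per cell cannot be told apart. The mean signal of the 18 measured markers, out of 19 listed, was 6.81, 6.68 and 6.62 in the double knockouts, 6.41, 6.81 and 6.25 in Fancc-/-, 6.73, 7.07 and 8.19 in Fancg-/- and 9.04, 8.79 and 8.54 in wild type. Limma called 15 of the 18 lower in the double knockout (median -2.23, where 3.02% of all genes were called lower and their median was -0.01), 14 in Fancc-/- (median -2.41, where 2.36% of all genes were called lower) and 0 in Fancg-/- (median -1.39, 16 with an unadjusted p below 0.05, where 0.0504% of all genes were called). In the double knockout the median was -1.75 with double-knockout replicate 1 alone and -1.88 with Xist as a covariate. With Xist 0 of the 18 were called, and calls over all genes in this comparison ran from 0 to 1853 across settings. Vpreb1, the surrogate light chain of B-cell precursors, read 4.20, 5.21 and 5.70 in the double knockouts, 4.16, 4.16 and 4.31 in Fancc-/-, 5.07, 5.88 and 8.92 in Fancg-/- and 8.99, 9.30 and 8.27 in wild type. Fancg-/- replicate 3, whose Vpreb1 was within the wild-type range, had the highest Trib2 of its group, 6.53, still 1.17 below the lowest wild-type array. Over the 12 arrays, which form a wild-type and a knockout cluster in this plane, the deviations of Trib2 and of the marker mean from their group means had a Pearson correlation of 0.819. Stem and progenitor markers moved with Trib2 too. Their mean was 7.11 to 7.26 in the double knockouts, 6.78 to 7.31 over the single knockouts and 7.59 to 7.70 in wild type. The correlation of their deviations with those of Trib2 was 0.465. By that measure early neutrophil markers (0.588) and megakaryocyte and platelet markers (0.549) were closer to Trib2 than stem and progenitor markers. The part of any of these cells in the Trib2 difference was not tested.

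**Figure D2:**
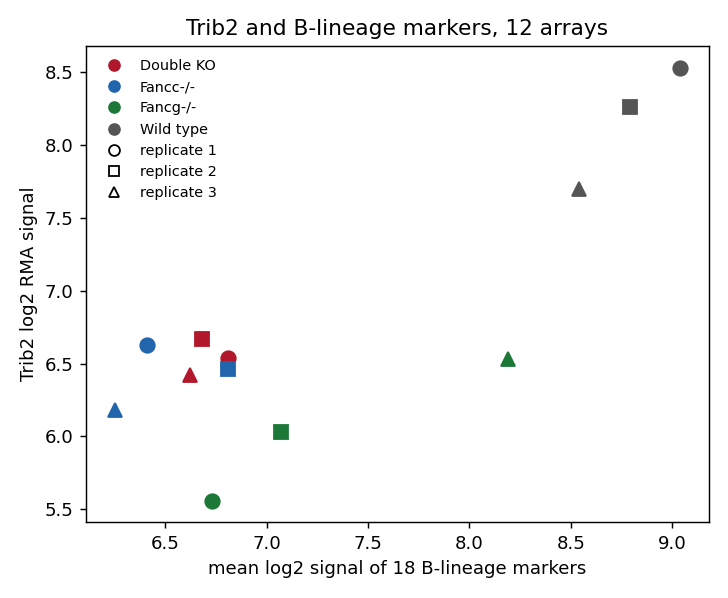
Trib2 log2 RMA signal (y axis) against the mean log2 signal of 18 B-lineage markers (x axis), 1 point per array, with colour for genotype and shape for replicate. Wild-type arrays sit at the upper right, and Fancg-/- replicate 3 combines a marker mean of 8.19 with a Trib2 signal of 6.53.

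Regulators reported for Trib2 in leukemia and lymphoid cells, 9 genes that were all measured, gave 1 call in the double knockout and 1 in Fancc-/-. There 5.28% and 4.54% of all genes were called, so a count of 1 of 9 is near that background. In Fancg-/- 0 were called, where 0.0504% of all genes were. At an unadjusted limma p below 0.05 the regulators numbered 4, 5 and 4 in the double knockout, Fancc-/- and Fancg-/-. Over all 11906 genes such a p was found for 2876, 2352 and 833. The median difference of the 9 was -0.19, -0.30 and -0.23 in the same order. Myb, a transcription factor of progenitor cells, fell in the double knockout (10.55, 9.91 and 9.88 against 11.37, 11.44 and 11.31 in wild type, -1.26 ± 0.19, limma adjusted p = 0.0107). In Fancc-/- the call was Tal1, a transcription factor of stem and erythroid cells, which rose (10.11, 9.70 and 9.12 against 8.36, 8.52 and 8.20, 1.28 ± 0.31, adjusted p = 0.0381). Meis1, the homeobox factor whose letters stand at -161 above, read 5.24, 4.24 and 4.21 in the double knockouts, 4.94, 4.64 and 4.41 in Fancc-/-, 4.57, 4.85 and 4.95 in Fancg-/- and 5.37, 5.31 and 5.14 in wild type. Its adjusted p against wild type was 0.0976 for the double knockout, 0.184 for Fancc-/- and 0.745 for Fancg-/-, so it did not pass in any. Meis1 was named after its values were seen. The stem and progenitor markers given above moved with Myb, in a list that itself holds Myb, Meis1 and Hoxa9. In the double knockout 2 of 10 were called lower, Myb itself and Sox4, where 3.02% of all genes were called lower. Erythroid markers moved with Tal1, at 10.35 to 10.81 in Fancc-/- against 9.32 to 9.64 in wild type. Of these, 13 of 18 were called higher, where 2.18% of all genes were called higher. The part of these cells in either result was not tested.

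Trib3, the stress-induced member, was higher on all 9 knockout arrays than on any wild-type array, and highest on 2 of the double-knockout arrays. Probe set 1426065_a_at read 6.17, 8.27 and 7.77 in the double knockouts, 6.02, 7.14 and 6.08 in Fancc-/-, 6.09, 6.06 and 5.84 in Fancg-/- and 5.17, 5.19 and 5.51 in wild type. The second probe set, 1456225_x_at, gave the same picture with 6.03, 7.70 and 7.60 in the double knockouts, 5.86, 6.56 and 5.95 in Fancc-/-, 5.85, 5.91 and 5.61 in Fancg-/- and 5.01, 5.03 and 5.19 in wild type. Double-knockout replicate 1 lay among the single knockouts, and Fancc-/- replicate 2 above the rest of its group. Of all genes, 290 (2.44%) had all 9 knockout arrays above wild type, and for the double knockout this is again how Trib3 was chosen.

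Trib3 averaged 7.40 ± 1.09 in the double knockouts, 6.41 ± 0.63 in Fancc-/-, 6.00 ± 0.14 in Fancg-/- and 5.29 ± 0.19 in wild type (SD, n = 3 each). The double knockout minus wild type was 2.11 ± 0.44 (4.32-fold higher, 95% interval 1.15 to 3.07), and it was 2.73 without double-knockout replicate 1 and 0.88 with that replicate alone. With Xist as a covariate it was 1.75 ± 0.97. Fancc-/- minus wild type was 1.12 (2.18-fold, 0.16 to 2.08) and Fancg-/- minus wild type 0.70 (1.63-fold, -0.26 to 1.66), so that the interval for Fancg-/- included 0. Among the knockouts no difference passed the test, and since Trib3 was chosen for its level on the double-knockout arrays, tests that use them are not independent of the choice. The double knockout minus Fancc-/- was 0.99 (0.03 to 1.95, limma adjusted p = 0.244) and minus Fancg-/- 1.41 (0.45 to 2.37, adjusted p = 0.21). Fancg-/- minus Fancc-/- was -0.42 (-1.38 to 0.54, adjusted p = 0.842). One array decided these values: without double-knockout replicate 1 the differences of the double knockout were 1.60 ± 0.30 from Fancc-/- and 2.02 from Fancg-/-, past the threshold but with nothing read from it, and with that replicate alone they were -0.24 and 0.18.

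**Figure D3:**
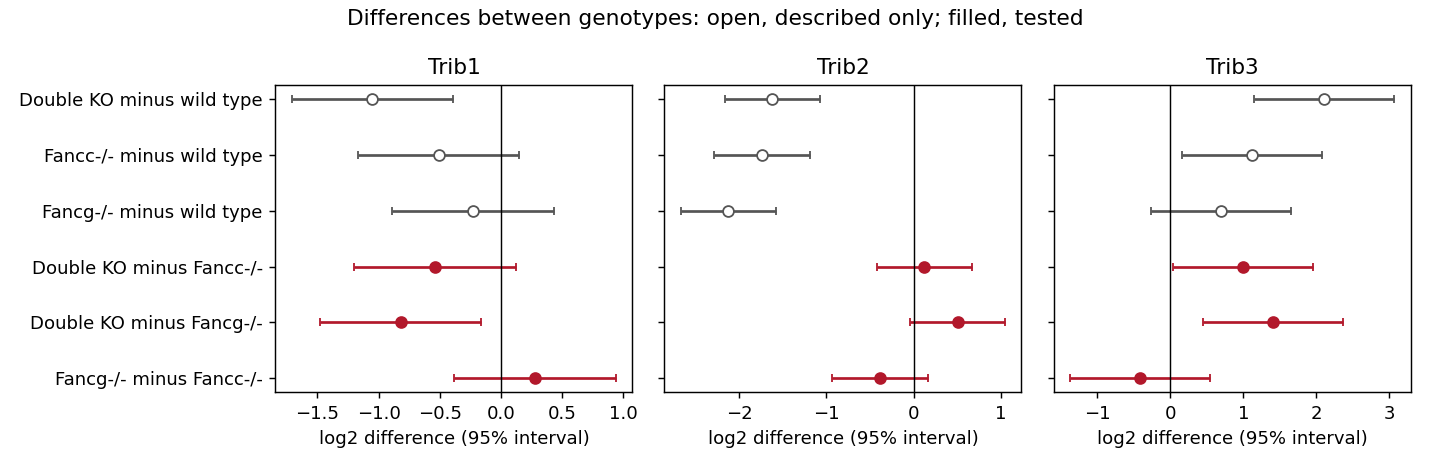
Differences in log2 RMA signal between genotypes for the brightest probe set of each member, with 95% intervals from the limma fit over 12 arrays. Open points, against wild type, are described only, and filled points, between knockouts, were tested. Trib2 was chosen for being lower in every knockout, so nothing is read from where its open intervals lie. No filled point passed at a limma adjusted p below 0.05 over all genes.

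Genes of the pathway that induces Trib3 gave 5 calls, all higher, among the 23 measured Atf4 and CHOP targets in the double knockout, where 2.27% of all genes were called higher. The median of the 23 was 0.47, against -0.01 for all genes. Slc7a11, the cystine transporter, rose most (7.27, 8.25 and 8.59 in the double knockouts against 5.04, 6.25 and 5.68 in wild type, 2.38 ± 0.43, limma adjusted p = 0.0174). Asns, asparagine synthetase, rose by 1.35 ± 0.17 (10.06, 9.92 and 9.72 against 8.61, 8.63 and 8.41, adjusted p = 0.00624). Slc3a2, the heavy chain shared by amino acid transporters, rose by 0.90 ± 0.23 (adjusted p = 0.0434), Gars1, the glycyl-tRNA synthetase that the annotation lists as Gars, by 0.84 ± 0.16 (adjusted p = 0.0185), and Slc7a5, a partner of Slc3a2, by 0.82 ± 0.19 (adjusted p = 0.0323). Slc7a11 and Asns differed in which arrays were high: Slc7a11 was low in Fancc-/- at 5.11 to 5.38, while Asns was above wild type on all 9 knockout arrays. Erythroid markers were also higher in the double knockout, at 9.91 to 10.72 against 9.32 to 9.64 in wild type, with 7 of 18 called, and their part in these results was not tested.

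The regulators themselves did not pass limma's test with all 12 arrays, 0 of 10 in the double knockout, with 4 at an unadjusted p below 0.05. Atf4 read 11.50, 12.23 and 12.15 in the double knockouts and 11.26, 11.32 and 11.45 in wild type (0.61 ± 0.18, limma adjusted p = 0.0636), with Fancc-/- and Fancg-/- at 11.12 to 11.55. Ddit3, which encodes CHOP, read 9.06, 9.98 and 9.88 in the double knockouts and 7.99, 9.12 and 9.13 in wild type (0.89 ± 0.31, adjusted p = 0.112). In both, as in Trib3, double-knockout replicates 2 and 3 were the highest arrays. Chac1, a glutathione-degrading enzyme among the targets and named after its values were seen, showed the split most clearly, with 5.78, 8.56 and 8.51 in the double knockouts, 6.97, 6.48 and 6.51 in Fancc-/-, 5.98, 6.06 and 6.20 in Fancg-/- and 5.70, 5.67 and 5.99 in wild type (1.83 ± 0.55, adjusted p = 0.073). Without double-knockout replicate 1, Chac1 was 2.75 ± 0.17 above wild type (limma adjusted p = 1.43e-05), Atf4 0.85 (adjusted p = 0.00238) and Ddit3 1.18 (adjusted p = 0.0249). In that setting 10 targets were called higher and 1 lower, where 15.6% of all genes were called. Replicate 1 was the lowest of its group for each of these named genes, so leaving it out raises them by construction. With 1 array left out, calls over all genes ran from 16 to 1853. These calls are therefore given as values only, and nothing is read from them. With replicate 1 alone Chac1 was -0.01 and Atf4 0.15 from wild type. A test of 1 array borrows its spread from the other groups, so the 0 targets called there say little.

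In Fancc-/- 2 of the 23 targets were called, both higher, where 2.18% of all genes were called higher. Asns rose by 1.66 ± 0.17 (10.57, 10.24 and 9.82 against 8.61, 8.63 and 8.41 in wild type, limma adjusted p = 0.000828) and Slc7a5 by 0.99 ± 0.19 (adjusted p = 0.0123). Slc7a11 was -0.39 (adjusted p = 0.661) there, and Atf4 and Ddit3 differed from wild type by 0.00 and 0.13. In Fancg-/- 0 of 23 were called (2 at an unadjusted limma p below 0.05), with Asns at 0.99 (adjusted p = 0.0986) as the nearest. Slc7a11 in the double knockout minus Fancc-/- was 2.77 ± 0.43 (adjusted p = 0.0528), the closest to a call among all pathway genes in the comparisons between knockouts.

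**Figure D4:**
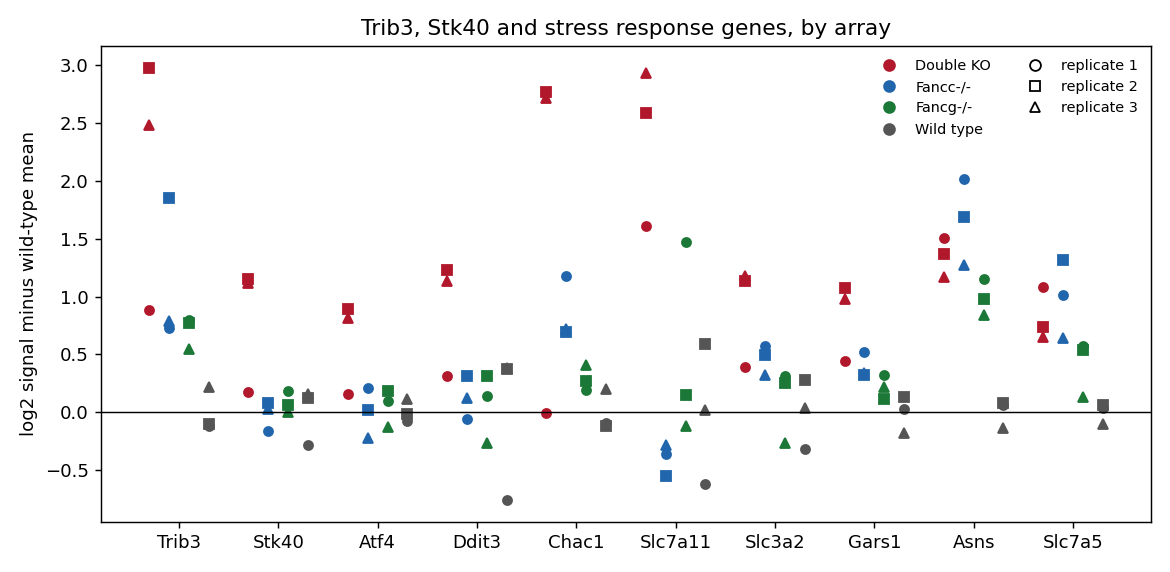
Signal minus the wild-type mean (log2, y axis) of Trib3, its relative Stk40, Atf4, Ddit3 and 6 Atf4 and CHOP targets on each array, with colour for genotype and shape for replicate. Double-knockout replicates 2 and 3 stand above replicate 1 for Trib3, Stk40, Atf4, Ddit3, Chac1 and Slc7a11, while for Asns and Slc7a5 replicate 1 is the highest of the 3.

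Trib1, the member with roles in macrophages, eosinophils and granulocytes, differed less from wild type than the other members in each knockout. Probe set 1424880_at read 9.42, 8.36 and 8.31 in the double knockouts, 9.35, 9.09 and 9.26 in Fancc-/-, 9.53, 9.54 and 9.47 in Fancg-/- and 9.08, 10.14 and 10.00 in wild type. The second, 1424881_at, read 6.10, 5.51 and 5.34 in the double knockouts, 6.20, 6.04 and 6.09 in Fancc-/-, 6.15, 6.38 and 6.81 in Fancg-/- and 5.89, 7.21 and 6.65 in wild type. Wild-type replicate 1 lay below the others of its group on both, and only double-knockout replicates 2 and 3 were below every wild-type array.

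Trib1 averaged 8.69 ± 0.63 in the double knockouts, 9.23 ± 0.13 in Fancc-/-, 9.51 ± 0.04 in Fancg-/- and 9.74 ± 0.58 in wild type (SD, n = 3 each). The double knockout minus wild type was -1.05 ± 0.30 (2.06-fold lower, 95% interval -1.71 to -0.39), and -0.32 with double-knockout replicate 1 alone. With Xist as a covariate it was -0.51 ± 0.64, and the double knockout minus Fancc-/- was -0.03. Fancc-/- minus wild type was -0.51 (-1.17 to 0.15) and Fancg-/- minus wild type -0.23 (-0.89 to 0.43), both intervals including 0. Wild-type arrays decided these values: without wild-type replicate 1 they were -0.84 ± 0.27 for Fancc-/- and -0.56 ± 0.27 for Fancg-/-, without replicate 2 -0.31 and -0.03, and without replicate 3 -0.38 and -0.10. The double knockout minus Fancc-/- was -0.54 (-1.20 to 0.12, limma adjusted p = 0.346) and minus Fancg-/- -0.82 (-1.48 to -0.16, adjusted p = 0.251). Fancg-/- minus Fancc-/- was 0.28 (-0.38 to 0.94, adjusted p = 0.851), although the arrays of these groups did not overlap. Without double-knockout replicate 1 the double knockout minus Fancc-/- was -0.90 ± 0.25 (limma adjusted p = 0.044) and minus Fancg-/- -1.18 (adjusted p = 0.0165). With 1 array left out, calls over all genes ran from 1 to 1285 and from 0 to 993 in these comparisons. Nothing is therefore read from these 2 calls. With double-knockout replicate 1 alone the difference from Fancc-/- was 0.18.

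Stk40, a pseudokinase related to the Tribbles that also binds Cop1, read 8.35, 9.33 and 9.30 in the double knockouts, 8.02, 8.26 and 8.21 in Fancc-/-, 8.36, 8.24 and 8.18 in Fancg-/- and 7.90, 8.30 and 8.34 in wild type. It was 0.81 ± 0.23 higher in the double knockout than in wild type (limma adjusted p = 0.0621) and -0.02 and 0.08 from wild type in Fancc-/- and Fancg-/-. Without double-knockout replicate 1 the difference was 1.13 (limma adjusted p = 0.00109). With 1 array left out, calls over all genes in this comparison ran from 16 to 1853, against 629 with all arrays. Calls made without that replicate, here and for Cop1 below, are therefore given as values only. Of the 11 genes of the Cop1 ligase and its substrates, 0 were called in any knockout against wild type, and 1 in each had an unadjusted limma p below 0.05. Cop1, the ligase the Tribbles proteins recruit, read 10.22, 9.54 and 9.68 in the double knockouts and 10.20, 10.38 and 10.15 in wild type (-0.43 ± 0.16, adjusted p = 0.126), and -0.64 (adjusted p = 0.00659) without double-knockout replicate 1.

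Cebpa, the transcription factor degraded through Trib1 and Trib2, was below every wild-type array on all 9 knockout arrays, as were 3.7% of all genes, at 8.70, 9.10 and 9.03 in the double knockouts, 8.82, 8.96 and 8.74 in Fancc-/-, 8.53, 8.75 and 8.96 in Fancg-/- and 9.25, 9.36 and 9.15 in wild type. None of its differences passed the test: -0.31 in the double knockout (limma adjusted p = 0.224), -0.41 in Fancc-/- (adjusted p = 0.147) and -0.51 in Fancg-/- (adjusted p = 0.358). Cebpb, the stress and emergency granulopoiesis member, was 0.20 from wild type in the double knockout and ranged from 9.69 to 11.90 over all arrays. The arrays measure RNA, so they carry no value for the C/EBP proteins that Tribbles act on.

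Other C/EBP family genes and granulocytic targets gave 5 calls of 12 in the double knockout, all lower (median -0.33), where 3.02% of all genes were called lower, and 0 of 12 in Fancc-/- and in Fancg-/-, where 3 and 0 had an unadjusted limma p below 0.05. Gfi1, a repressor needed for neutrophil formation, fell to 6.61, 5.86 and 6.85 in the double knockouts, against 8.19, 7.75 and 7.65 in wild type (-1.42 ± 0.30, limma adjusted p = 0.0243). Cebpg fell by 1.36 on the log2 scale (7.85, 6.41 and 6.37 against 8.15, 8.27 and 8.30, adjusted p = 0.0473), with double-knockout replicate 1 near wild type. Cebpd was -0.95 ± 0.21 (9.29, 9.05 and 9.42 against 10.20, 10.22 and 10.18, adjusted p = 0.0308). Elane, neutrophil elastase, was -0.33 ± 0.07 (adjusted p = 0.0297) and Mpo, myeloperoxidase, -0.31 ± 0.07 (adjusted p = 0.0279), and Mpo was named after its values were seen. Early neutrophil markers, a list that shares Elane, Mpo, Prtn3, Ctsg and Gfi1 with this one and so largely repeats it, had 4 of 7 called lower (3.02% of all genes), and their mean was 11.22 to 11.35 in the double knockouts against 11.73 to 11.98 in wild type. Late neutrophil markers had 0 of 10 called, and 1 with an unadjusted limma p below 0.05, at 12.36 to 12.72 against 12.66 to 12.86. The part of early neutrophil cells in these calls was not tested.

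Among the 13 measured genes of Akt and the FOXO factors, which Trib2 and Trib3 are reported to restrain, 1 was called higher and 1 lower in the double knockout (median 0.12), where 5.28% of all genes were called. With 1 of 13 called in Fancc-/-, where it was 4.54%, the list is near the background there. Bcl2l11, the pro-apoptotic FOXO target Bim, rose by 1.18 ± 0.27 (9.77, 10.82 and 10.78 against 8.96, 9.49 and 9.37 in wild type, limma adjusted p = 0.0322). Klf2, a transcription factor of lymphocytes and vessels, was -1.79 ± 0.41 (11.54, 9.83 and 9.86 against 11.63, 12.56 and 12.42, adjusted p = 0.0323). In both genes double-knockout replicate 1 was the array nearest to wild type, and with it alone they were 0.50 and -0.66, not called. In Fancc-/- the call was Foxo1, lower at -0.96 ± 0.23 (6.74, 7.20 and 6.89 against 7.85, 8.08 and 7.78, adjusted p = 0.0382), and in the double knockout it read 7.59, 8.65 and 8.27 (0.27, adjusted p = 0.541). Foxo1 is highly expressed in B-lineage cells, whose markers were lower in Fancc-/- as given above, and their part in the Foxo1 call was not tested. The 6 measured MEK and MAP kinases gave 0 calls in the double knockout, 2 of them with an unadjusted limma p below 0.05, with Mapk14 (p38 alpha) at -0.32 (adjusted p = 0.0848) as the nearest.

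Over all pathway lists, 13 of 85 measured genes were called in the double knockout (15.3%, against 5.28% of all genes), 6 higher and 7 lower. In Fancc-/- it was 4 of 85 (4.71%, against 4.54%), which is near the background, and 7 with the replicate number as a block. In Fancg-/- and in each comparison between knockouts limma called 0 of 85, with 0.0504% of all genes called in Fancg-/- minus wild type, 0.0084% in the double knockout minus Fancc-/-, 0.0% in the double knockout minus Fancg-/- and 0.109% in Fancg-/- minus Fancc-/-. At an unadjusted limma p below 0.05 the pathway genes numbered 8 in Fancg-/- minus wild type, 25 in the double knockout minus Fancc-/-, 23 in the double knockout minus Fancg-/- and 8 in Fancg-/- minus Fancc-/-. Over all 11906 genes such a p was found for 833 in Fancg-/- minus wild type, 2345 in the double knockout minus Fancc-/-, 1714 in the double knockout minus Fancg-/- and 1076 in Fancg-/- minus Fancc-/-. The count for the double knockout depended on single arrays, and so did calls over all genes, so the swing is not particular to these lists. With 1 array left out, calls over all genes ran from 16 to 1853, against 629 with all arrays. The pathway count was 29 without double-knockout replicate 1 and 21 without Fancc-/- replicate 3. It was 3 and 1 without double-knockout replicates 2 and 3 in turn, and 2, 1 and 2 without wild-type replicates 1, 2 and 3. Without Fancg-/- replicate 2 it was 7. With double-knockout replicate 1 alone, or with Xist as a covariate, it was 0. With Xist errors were wider, and Asns was 1.65 ± 0.37, Slc7a11 3.00 ± 0.93 and Gfi1 -1.24 ± 0.66, while Myb was smaller at -0.87. With replicate 1 alone Asns (1.51 ± 0.26), Gfi1 (-1.25 ± 0.37), Cebpd (-0.91) and Elane (-0.43) stayed near or above their size with all arrays. Smaller with that replicate alone were Cebpg (-0.39), Klf2 (-0.66), Bcl2l11 (0.50), Gars1 (0.45), Slc3a2 (0.39 ± 0.26), Slc7a11 (1.62) and Myb (-0.82). For Fancc-/- minus wild type the pathway count was 1 or 2 without any 1 wild-type or Fancg-/- array, 8 without Fancc-/- replicate 3 and 9 without double-knockout replicate 1. Calls over all genes in that comparison ran from 175 to 712 across settings, against 540.

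**Figure D5:**
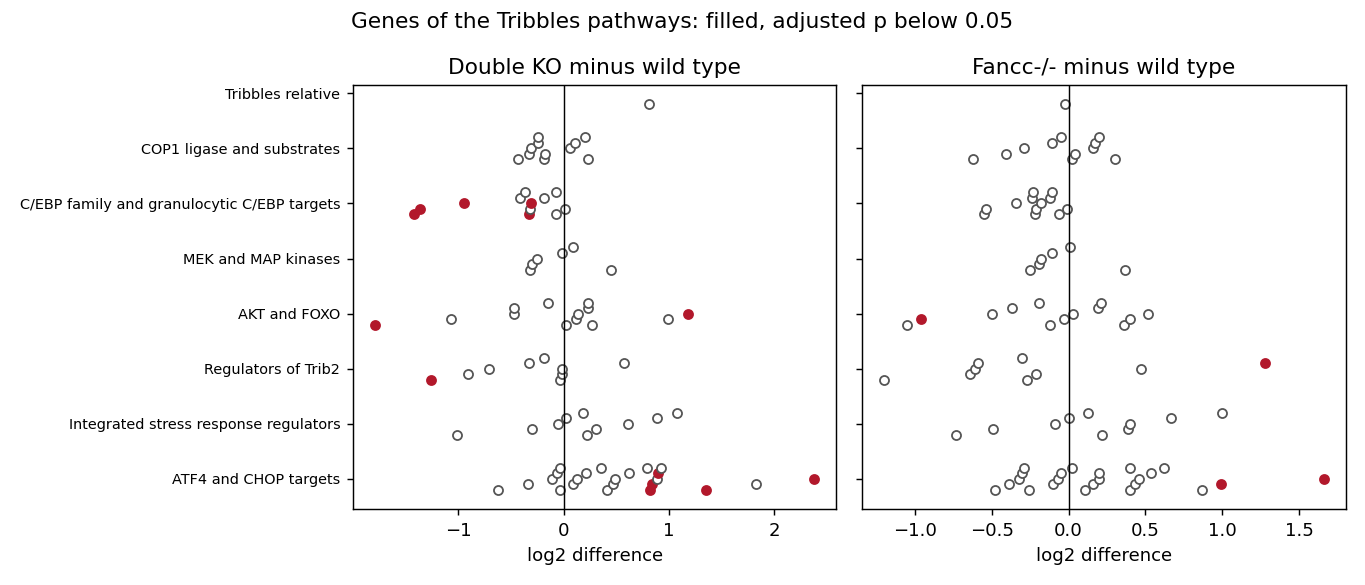
log2 differences from wild type (x axis) for the 85 measured pathway genes, 1 point per gene and 1 row per list, in the double knockout (left) and Fancc-/- (right). Filled points passed a limma adjusted p below 0.05: 13 in the double knockout, of which 5 are C/EBP family or granulocytic genes below 0 and 5 are Atf4 and CHOP targets above 0, and 4 in Fancc-/-.

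The genes most like each member over the 12 arrays, by Pearson correlation of log2 signal among the genes that passed the filter, are given as a description, since all arrays share the genotype differences and the few arrays that stand apart. Trib1 was most like Egr1, at 0.971 (Spearman 0.853), then Kdm3b, Btg2, Phf20l1 and Junb, at 0.965 to 0.945. Egr1 and Junb are immediate early transcription factors. The likeness of Trib1 to Egr1 held in deviations from group means, at 0.951. Asf1a, a histone chaperone, ran most opposite to Trib1, at -0.964. Trib2 was most like Arntl, the clock factor Bmal1, at 0.93 (Spearman 0.755), then Slamf7, Irf4, Cpm and Fam214a, at 0.927 to 0.898. Irf4, a transcription factor of B and plasma cells, had 0.596 in deviations from group means, below its 0.915 over all arrays. Gpr4 ran most opposite to Trib2, at -0.956. Trib3 was most like Hnrnpdl, at 0.925 (Spearman 0.86), then Cttnbp2nl, Uhrf1bp1, Fnip2 and Oaf, at 0.909 to 0.902, and most opposite to Pcmtd1, at -0.957. Within the family, Trib1 and Trib3 had -0.841 (-0.616 in deviations from group means), Trib2 and Trib3 -0.479 and Trib1 and Trib2 0.279.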

How the data were processed

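RNA of 12 mice was read on Affymetrix mouse arrays, 1 per mouse and 3 per genotype, a number that limits the precision. The authors made the deposited log2 signals with RMA, a method that adjusts background, normalizes across arrays and summarizes probes. RMA and Partek are named without versions, per the submitters' processing notes. Quantile normalization as in RMA removes shifts shared by all genes. The table held 45101 probe sets, 64 of them controls. Of these, 34945 carried a single gene symbol and were kept, while 932 with several symbols and 9160 with none were not used here. Entrez IDs found 34741 of the kept ones in the RefSeq gene table (GRCm38.p6).

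Each gene took its probe set of highest mean and was tested if that was above the array median on at least 3 arrays (11906 genes tested, 6287 dim). limma 3.58.1 in R 4.3.3 fitted 1 model over the 12 arrays with a variance trend (8 residual degrees of freedom). The 6 comparisons were 2-sided, adjusted by Benjamini-Hochberg over all genes tested, and called at an adjusted p below 0.05. Comparisons with wild type share the same 3 wild-type arrays. The fit was tested on simulated data.

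Pathway lists held 94 genes, 86 under a single symbol and 85 tested. The members and lists were chosen with earlier results of these data known. Genes named are, per list and comparison, up to 4 of those called by size of difference, otherwise up to 2 of smallest p, plus Stk40, Cop1, Cebpa, Cebpb, Atf4 and Ddit3. For likeness the 5 highest and 3 lowest correlations were taken, and not all are printed. Replicate numbers were checked for pairing by the correlation of deviations from group means. It was 0.159, 0.146 and 0.158 for Fancc-/- with wild type, and -0.365 to 0.195 over all same-number pairs. Pairs of different number ran from -0.233 to 0.356, so whether the numbers mark pairs was not settled. The main fit was unpaired, and the number entered only as a block in an alternative. Alternatives were other filters, probe sets, centring, the groups compared alone, Xist as a covariate, the replicate number as a block, and arrays left out. Leaving out double-knockout replicates 2 and 3 was added after seeing the data.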

Additional observations from a re-analysis of the deposited data

How the results depend on the processing

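For the members against wild type, 199 values under alternatives moved by less than the replicate spread and 11 by more. Against wild type, Trib2 in the double knockout, Fancc-/- and Fancg-/- was -0.77, -0.80 and -0.95 as the mean of its probe sets, -0.76, -0.71 and -0.84 on 1426641_at, and 0.06, 0.07 and 0.13 on 1459852_x_at, which is near the lowest signals. Without double-knockout replicates 2 and 3, the double knockout minus wild type was -0.32 for Trib1 and 0.88 for Trib3, and minus Fancc-/- it reversed to 0.18 for Trib1 and -0.24 for Trib3. Between knockouts Trib2 also reversed on dim probe sets: the double knockout minus Fancc-/- was -0.05 on 1426641_at and -0.01 on 1459852_x_at, and on 1459852_x_at the double knockout minus Fancg-/- was -0.06 and Fancg-/- minus Fancc-/- 0.06. With 1 array left out in turn, the double knockout minus Fancc-/- ran over -0.90 to -0.34 for Trib1 and 0.56 to 1.60 for Trib3, and minus Fancg-/- over -1.18 to -0.62 for Trib1 and 0.97 to 2.02 for Trib3. The calls gained were those without double-knockout replicate 1.

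The pathway genes called in the double knockout minus wild type numbered 0 with Xist as a covariate, 6 without Fancg-/- replicates 1 and 3, 0 without double-knockout replicates 2 and 3, and 1 to 29 with 1 array left out. For Fancc-/- minus wild type they numbered 7 with the replicate block, 2 with Xist, 2 without Fancg-/- replicates 1 and 3, and 1 to 9 with 1 array left out. For Fancg-/- minus wild type they numbered 3 with only the groups compared, 1 with the replicate block and 0 to 1 with 1 array left out. For the double knockout minus Fancc-/- they numbered 2 with the filter at percentile 75, 1 with median centring, 1 without Fancg-/- replicates 1 and 3, and 0 to 21 with 1 array left out. That range was 0 to 17 for the double knockout minus Fancg-/- and 0 to 1 for Fancg-/- minus Fancc-/-. Over all genes the double knockout minus wild type gave 0 to 1853 calls across settings, against 629. Fancc-/- minus wild type gave 175 to 712 and Fancg-/- minus wild type 0 to 72. The double knockout gave 0 to 1285 against Fancc-/- and 0 to 993 against Fancg-/-, and Fancg-/- minus Fancc-/- gave 0 to 51. The causes were not tested. The replicate block changed no call of a member between knockouts. Of the values of named pathway genes, 2223 stayed on the same side of the threshold, 48 gained and 122 lost a call. Direction was not kept by every gene. Across settings Ddit3 in Fancc-/- minus wild type ran from -0.3 to 0.32, and Cop1 in the double knockout minus Fancc-/- from -0.53 to 0.08. The number of arrays, 3 per group, and the low signals of dim probe sets limit the precision.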

Other observations

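Markers of eosinophils, basophils and mast cells, lineages in which Trib1 has a role for eosinophils, had a mean log2 signal of 8.14, 8.41 and 8.28 in the double knockouts, 8.39, 8.42 and 6.32 in Fancc-/-, 8.50, 8.83 and 8.42 in Fancg-/- and 8.93, 9.24 and 9.08 in wild type. Every knockout array was below every wild-type array. Limma called 1 of the 12 measured markers lower in the double knockout, where 3.02% of all genes were called lower, so the count is near the background. It was Cd200r3, an activating receptor of basophils and mast cells (-1.37 ± 0.29, adjusted p = 0.0276). In Fancg-/- 0 of 12 were called, with 2 at an unadjusted p below 0.05. In Fancc-/- limma called 4 lower, where 2.36% of all genes were: Cd200r3 (-1.71 ± 0.29, adjusted p = 0.00793), the basophil protease Mcpt8 (-2.54 ± 0.65, adjusted p = 0.0482), the mast cell carboxypeptidase Cpa3 (-1.39 ± 0.34, adjusted p = 0.0376) and the IgE receptor subunit Ms4a2 (-1.57 ± 0.39, adjusted p = 0.0442). Fancc-/- replicate 3 was the lowest array. These genes were named after their values were seen.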
